A study of Mus musculus with 24 samples.

Results

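Collagen genes encode the chains of the collagens, the main structural proteins of the extracellular matrix. They were taken as the protein-coding genes of the mouse mm10 build whose symbol is made of Col, a number, the letter a and a number, which gave 44 of 21631 protein-coding genes. By textbook class, 11 of them are fibrillar collagens, 6 are basement membrane collagens and 27 are other collagens. The other collagens comprise 6 beaded filament genes (type VI), 9 genes of FACIT collagens, which sit on the surface of fibrils, 3 short chain network genes, 2 multiplexins, 4 transmembrane collagens and 3 further genes (Col7a1, Col26a1 and Col28a1). A peak was assigned to a collagen gene if its summit, the base of highest signal, lay inside the gene body. A summit in no protein-coding gene was assigned to a collagen gene that was the nearest protein-coding gene within 50 kb.

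Collagen chains wind around each other into helices, and classes differ in what the helices build. Fibrillar chains such as those of types I, III and V pack into the fibres that give tissue its tensile strength, type IV chains form the mesh of the basement membrane, and type VI chains form beaded filaments in the matrix around cells. In the heart, fibroblasts are known as the main source of fibrillar collagen, while basement membrane collagen surrounds muscle cells and vessels.

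Open chromatin was mapped by ATAC-seq, in which a transposase cuts and tags accessible DNA, during differentiation towards cardiomyocytes of A2lox.cre, a line of mouse embryonic stem cells. The labels give no genetic or drug difference between the groups, which differ by stage. They were stem cells in 2i, a medium with kinase inhibitors that keeps them in the naive state, and cells at days 0 to 8, 10 and 15 (D0 to D8, D10 and D15), the last given by the labels as the cardiomyocyte stage. Each of the 12 time points had 2 biological replicates, 24 samples in all, and the labels of both replicates name 1 joint peak list. Each value below therefore has no replicate spread, and intervals cover counting error only. All cells came from 1 line, and a sorting step is not given in the sources used here. A region open in fewer cells and a region less open in each cell cannot be told apart.

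The 12 lists held 31324 to 66993 peaks. At a fold enrichment between 4.9 and 5.1, the median −log10 p of a peak, which shows how much statistical weight a list gives to the same enrichment, ranged from 7.69 at 2i to 11.6 at D3 and was 8.75 at D0, 11.1 at D10 and 11.5 at D15. D10 and D15 thus had more weight than 2i and D0, and the parts of weight and time in any late value below cannot be told apart. A region missing from a list was not called there, which does not show that it was closed. Of the marker genes used to check the time points, 6 of 7 naive pluripotency genes had a summit within 1 kb of their start at 2i, 3 at D0, 6 at D3, 4 in each list from D4 to D8, 3 at D10 and 2 at D15. Of 8 cardiomyocyte genes, 2 had one in each list from 2i to D3, 6 at D5, 3 at D4 and D6, 4 at D7 and D8, and 3 at D10 and D15. Myh7 and Nppa were among those called at D5, while Myh6, Myh7, Myl2, Myl7 and Nppa had none in the D15 list.

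Collagen genes took a larger share of the peaks in late lists than in early ones, in each of the 3 classes. In all, 1499 of 518537 summits (0.289%) were assigned to collagen genes, 74.3% of them inside a gene body. From 2i to D15 in time order the lists held 76, 63, 43, 90, 113, 150, 137, 108, 255, 215, 112 and 137 such summits. In the same order, the share per 1000 peaks of the list was 1.65, 1.56, 1.37, 2.29, 2.84, 2.68, 3.16, 3.29, 3.81, 4.01, 3.43 and 3.78. The low stretch was 2i to D1 and the high stretch D7 to D15, and the Wilson 95% interval at D0 (1.22 to 2) did not overlap that at D15 (3.2 to 4.47). The D15 share was 2.42 times the D0 share (95% interval 1.8 to 3.26), and 2.45 times when each list was limited to the same number of its strongest peaks. Of all peaks, 79.8% at D0 and 91.5% at D15 were assigned to any protein-coding gene. As a share of those assigned summits, the D15 value was 2.11 times the D0 value (1.57 to 2.85). On that basis the ratio was 2.06 for fibrillar, 3.05 for basement membrane and 1.97 for other collagens.

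**Figure D1:**
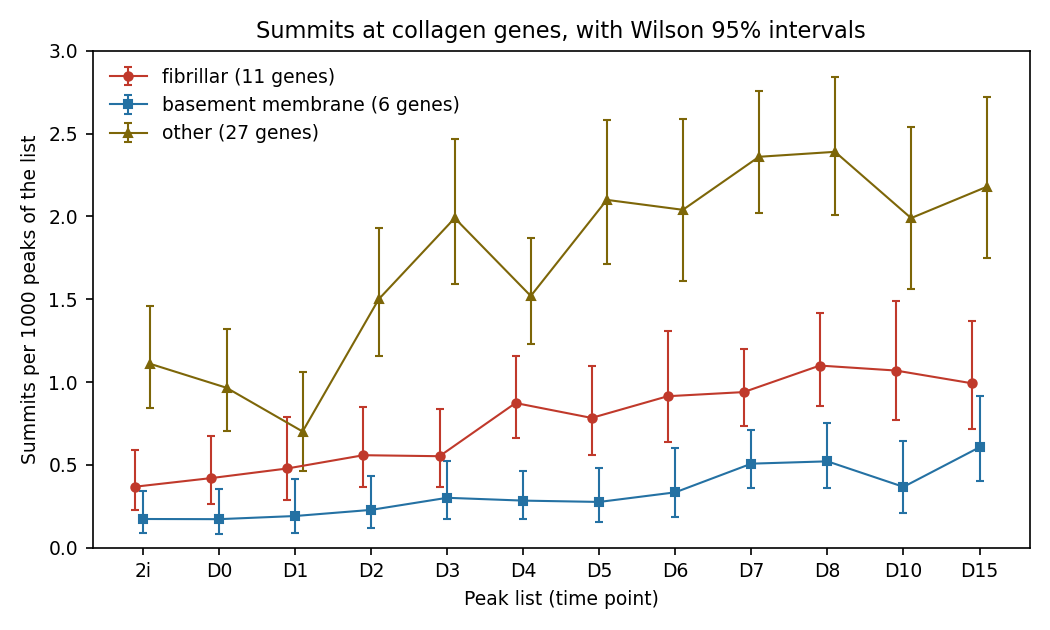
Summits at fibrillar, basement membrane and other collagen genes per 1000 peaks of each list (vertical axis) against time point (horizontal axis), with Wilson 95% intervals as bars. The share of each class was lower at D0 than at D15, from 0.421 to 0.993 for fibrillar, 0.173 to 0.607 for basement membrane and 0.966 to 2.18 for other collagens.

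The plot of shares by class shows the course of each class. Fibrillar genes stood at 0.369 summits per 1000 peaks at 2i, 0.553 at D3, 0.874 at D4, 1.1 at D8 and 0.993 at D15. Basement membrane genes stood at 0.174 at 2i, 0.335 at D6, 0.508 at D7, 0.368 at D10 and 0.607 at D15, from as few as 6 summits in a list. The D15 share over the D0 share was 2.36 (1.32 to 4.2) for fibrillar, 3.5 (1.5 to 8.19) for basement membrane and 2.26 (1.54 to 3.31) for other collagens, so the 3 intervals overlapped. With only peaks of −log10 q of at least 5 the ratio for basement membrane genes was 2.47, from 4 summits at D0 and 11 at D15, and its interval (0.788 to 7.77) then included 1.

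Among the fibrillar genes, Col1a1 and Col1a2, whose chains together form type I collagen, and Col5a1, whose chain takes part in starting fibrils, had more summits in late lists. In time order from 2i, Col1a1 had 1, 2, 1, 3, 4, 3, 2, 2, 6, 6, 6 and 6 summits, with 6 in each list from D7. Col1a2 had 1, 1, 2, 2, 3, 7, 6, 6, 9, 7, 4 and 5, with its step between D3 and D4. Col5a1 had 1, 2, 2, 1, 2, 1, 2, 6, 10, 13, 6 and 9, with at most 2 before D6 and at least 6 from D6. The first list with at least 6 summits was thus D7 for Col1a1, D4 for Col1a2 and D6 for Col5a1. These counts are not scaled to list length, and D7 (66993 peaks) and D4 (56053 peaks) are the longest lists. The part of list length in these steps was not tested. A peak interval could hold more than 1 summit: D0 had 40370 summits in 35151 intervals, and D15 had 36248 in 25413. Col27a1, a chain of cartilage fibrils, had 2, 3, 2, 4, 4, 6, 7, 6, 11, 13, 6 and 6 summits.

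Counts of the other fibrillar genes were spread over the course. Col3a1, the chain of type III collagen, had 2, 1, 2, 1, 1, 2, 2, 0, 4, 3, 2 and 3 summits. Col2a1, the main chain of cartilage collagen, had 2, 1, 0, 4, 3, 1, 3, 3, 5, 4, 2 and 1, with its highest counts at D7, D8 and D2. Col5a2, another chain of type V collagen, had 1, 1, 3, 2, 0, 6, 3, 1, 4, 2, 2 and 3. Col11a1 and Col24a1 had their highest counts at D4, with 8 and 14 summits, the list with the second largest number of peaks. Col5a3 and Col11a2 had at most 3 and 1 summits in a list.

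Among the basement membrane genes, Col4a2 was the 1 that passed the test for order in time given below. Col4a1 and Col4a2 encode the chains found in most basement membranes and lie head to head on chromosome 8, with listed starts 21 bp apart. Col4a2 had 1, 0, 0, 0, 3, 2, 3, 3, 16, 13, 5 and 9 summits in time order, against 2, 2, 2, 6, 8, 2, 2, 5, 9, 7, 2 and 4 for Col4a1. Their shared start was called in every list, and at D0, D1 and D2 its summits lay in the body of Col4a1 alone. At D4, D6, D7, D8 and D10 its strongest summit lay in the body of Col4a2 alone, and at D5 and D15 in that of Col4a1 alone. The part of this assignment in the order test of Col4a2 was not tested. Col4a5, also head to head with its neighbour Col4a6 at 1.27 kb, had 1 summit in each list from D0 to D15, the one at its start, and 2 at 2i. Col4a3, Col4a4 and Col4a6 had at most 4 summits in a list.

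**Figure D2:**
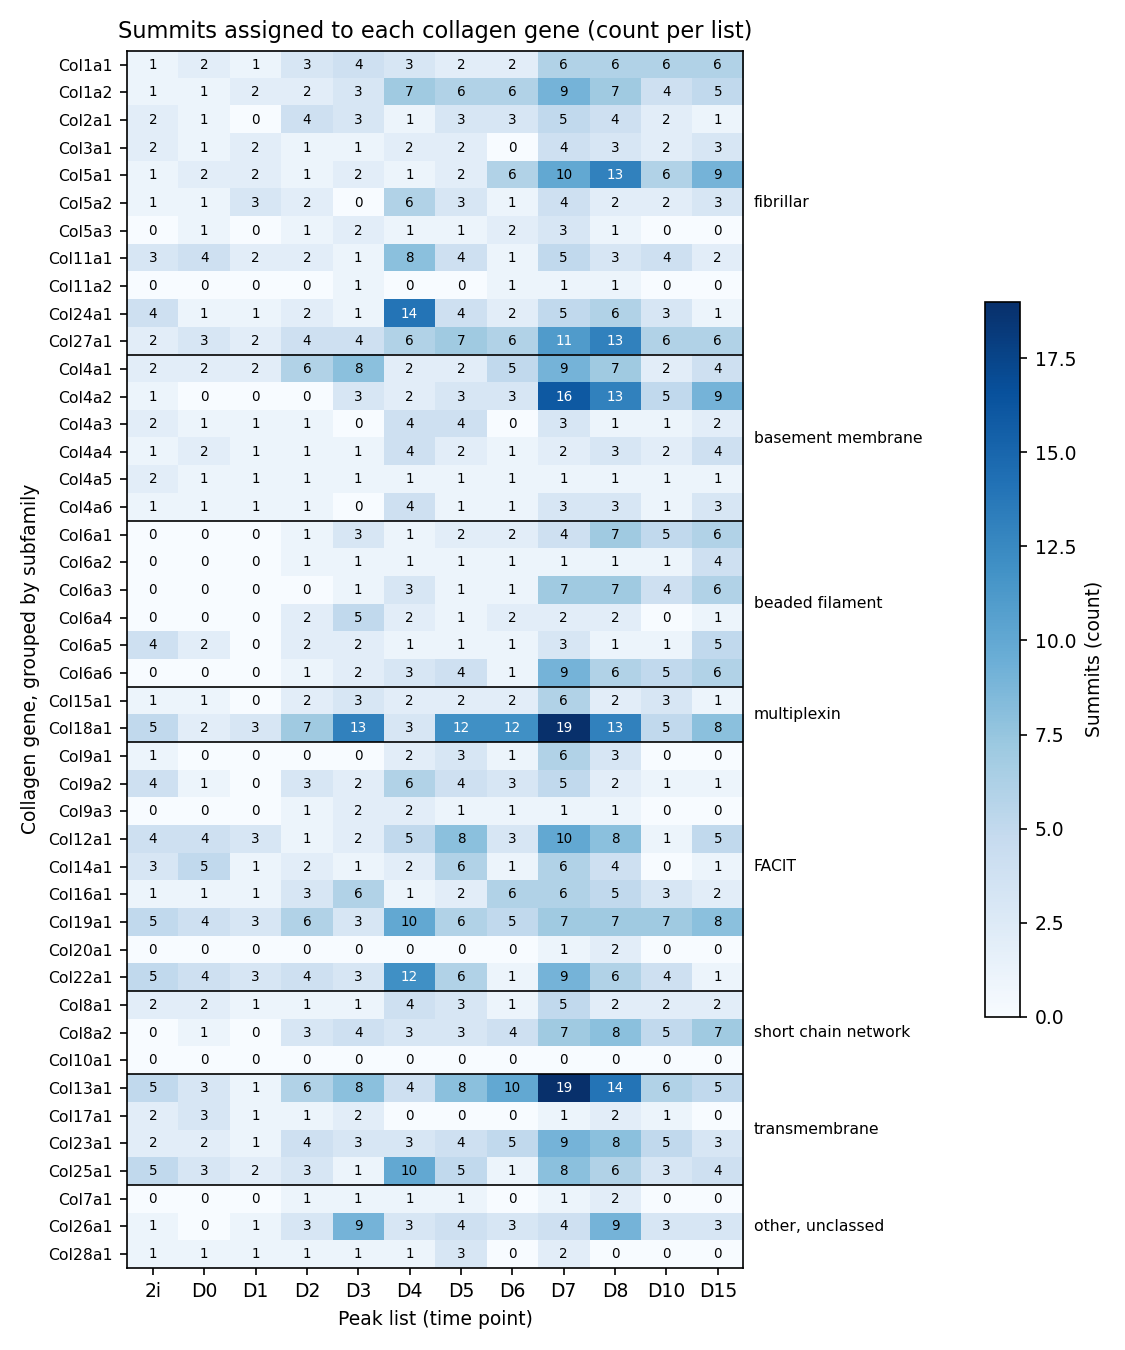
Number of summits assigned to each of the 44 collagen genes (rows, grouped by subfamily) in each of the 12 lists (columns), with the colour scale in summits. Col4a2, Col6a1, Col6a3 and Col6a6 have at most 1 summit in each list before D3 and at least 4 in each list from D7, while Col10a1 has 0 in every list.

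The beaded filament genes of type VI collagen together had 4, 2, 0, 7, 14, 11, 10, 8, 26, 24, 16 and 28 summits in time order, which is 0.0869 per 1000 peaks at 2i and 0.772 at D15. Col6a1, a chain of the common type VI heterotrimer, had 0, 0, 0, 1, 3, 1, 2, 2, 4, 7, 5 and 6. Col6a3, the long chain of that heterotrimer, had 0, 0, 0, 0, 1, 3, 1, 1, 7, 7, 4 and 6. Col6a6, a chain related to it, had 0, 0, 0, 1, 2, 3, 4, 1, 9, 6, 5 and 6. All of these 3 genes had no summit in the lists 2i, D0 and D1 and at least 4 in each list from D7. Col6a2 had 1 summit in each list from D2 to D10 and 4 at D15. Col6a4 had its highest count, 5, at D3, and Col6a5 had 4 at 2i and 5 at D15.

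The remaining collagens with most summits had their highest counts at different times. Col13a1, a transmembrane collagen, had 5, 3, 1, 6, 8, 4, 8, 10, 19, 14, 6 and 5. Col18a1, the multiplexin whose end fragment is endostatin, had 5, 2, 3, 7, 13, 3, 12, 12, 19, 13, 5 and 8. Both had their highest count in the D7 list, which is the longest of the 12. Col15a1, the other multiplexin, had 6 at D7 and at most 3 elsewhere. The next in number of summits were the FACIT genes Col19a1 and Col22a1, with their highest counts, 10 and 12, at D4, and the transmembrane gene Col25a1 also had its highest, 10, at D4. Col19a1 then had 7, 7, 7 and 8 summits from D7 to D15. Col8a2, a chain of the network in the membrane under endothelium of the cornea, had 0, 1, 0, 3, 4, 3, 3, 4, 7, 8, 5 and 7. Col10a1, the collagen of hypertrophic cartilage, had no summit in any list, and Col20a1 had summits only at D7 and D8.

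Order in time was tested for each gene by Spearman's rho between its summits per 1000 peaks and the day over 11 lists (2i has no day), with a two-sided permutation test and Benjamini-Hochberg adjustment over 16447 genes that had summits in at least 4 lists. Of 44 collagen genes 42 could be tested, and 3 rose with day at an adjusted p of at most 0.05, against 0.182% of all genes tested. These were Col4a2 (rho 0.94, permutation p = 5e-05, adjusted p = 0.0455), Col6a3 (rho 0.94, permutation p = 0.00013, adjusted p = 0.0455) and Col6a6 (rho 0.93, permutation p = 0.00011, adjusted p = 0.0455). Pearson's r was 0.85 for Col4a2 (adjusted permutation p = 0.052), 0.93 for Col6a3 (0.0253) and 0.91 for Col6a6 (0.034). No collagen gene fell by this test, against 0.158% of all genes tested. At an unadjusted permutation p of at most 0.05, 11 of the 42 collagen genes were higher, against 9.61% of all genes tested, and 0 were lower, against 6.05%. Col8a2 (rho 0.91, adjusted permutation p = 0.052), Col27a1 (rho 0.90, 0.0573) and Col6a1 (rho 0.88, 0.0709) missed the threshold, though by Pearson's r Col8a2 (0.91, adjusted permutation p = 0.0393) and Col6a1 (0.91, 0.0286) passed it. Col1a1 (rho 0.75, 0.151), Col5a1 (rho 0.75, 0.16) and Col1a2 (rho 0.69, 0.222) missed it by more.

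The 3 calls lay close to the threshold. None of the 3 was kept when any single list was left out, and for 10 of the 11 lists no gene at all was then called; rho of the 3 genes stayed at 0.83 or above in each alternative run. Without D0 and D15 rho was 0.90 for Col4a2, 0.90 for Col6a3 and 0.88 for Col6a6, with adjusted permutation p of 0.243, 0.231 and 0.249. Over all 42 tested collagen genes the median rho was 0.40, against 0.06 over all genes tested, and 34 (81%) were above 0, against 54.6%. The median was 0.42 for fibrillar genes, 0.33 for basement membrane genes, 0.76 for the beaded filament genes and 0.16 for the FACIT genes. The lowest values were −0.58 for Col28a1, −0.44 for Col17a1 and −0.33 for Col14a1, none of which passed the test (adjusted permutation p = 0.354, 0.563 and 0.734).

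Starts of collagen genes fell into those called in every list, those called late, those called in the middle only and those never called. Transcript starts were listed by RefSeq for 35 of the 44 genes, and a start was counted as called where a summit lay within 1 kb of it. Of these 35 genes, 16 (45.7%) had a called start at 2i, against 58.3% of all genes with a listed start. The number was 24 at D3 (all genes 64.6%), 28 (80%) at D7 (all genes 65.9%) and 21 (60%) at D15 (all genes 58.5%). As counted, the share of these 35 genes was thus below that of all genes at 2i, above it at D7 and close to it at D15. No interval was computed for these shares of few genes, and the differences were not tested.

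Every list held the start of 12 collagen genes (34.3%, all genes 48.4%): Col4a1, Col4a2, Col4a5, Col5a1, Col8a1, Col11a1, Col18a1, Col19a1, Col23a1, Col24a1, Col25a1 and Col27a1. The authors' peak caller gave each summit a fold enrichment over its local background, which is printed for each list as a description and is not compared between lists. At the Col5a1 start it was 7.88, 6.97, 6.09, 10.5, 17.6, 5.04, 9.66, 10.9, 10.3, 8.82, 7.72 and 6.59 in time order. So the start of Col5a1 was called throughout, while the 4 late-gained regions of the gene described below were first held at D5 or later. Col18a1 has 2 listed starts, of which the upstream one was called in 12 lists and the downstream one in none. With only peaks of −log10 q of at least 5, 3 collagen genes had a called start in every list.

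The start was called at D10 and D15 and neither at 2i nor at D0 for 5 collagen genes, Col1a2, Col3a1, Col6a1, Col6a2 and Col16a1, against 2.15% of all genes with a listed start. Col1a2 was called from D1 on, with fold enrichments in time order of 3.11, 6.03, 7.51, 6.72, 6.71, 4.74, 5.56, 7.08, 7.11 and 6.96. Col6a2 and Col16a1 were called from D2 on and Col6a1 from D5 on. For Col6a1 they were 5.08, 4.52, 5.83, 4.75, 4.01 and 3.93 in the lists from D5. Col3a1 was the last, called from D7 on with 3.1, 4.48, 3.27 and 4.01. The order was thus Col1a2, then Col6a2 and Col16a1, then Col6a1, then Col3a1. That order rests in part on weak peaks: −log10 q was 1.61 for Col1a2 at D1 and 1.67 for Col16a1 at D2, against 12.7 for Col6a2 at D2. With −log10 q of at least 5, Col1a2 (10.2) and Col6a2 were both first called at D2 and Col16a1 (19.7) at D3. At that threshold the late starts were those of Col1a2, Col16a1 and Col8a2, and Col3a1, Col6a1 and Col6a2 were no longer among them. Col6a3 was called only at D8 (3.92) and D15 (3.78).

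A start called in the middle only, at 2 or more successive time points between D1 and D8 but at neither end of the course (2i and D0, D10 and D15), was found for 4 genes with a listed start, against 3% of all genes. These were Col7a1, the anchoring fibril collagen of skin, Col9a1 and Col9a2, chains of cartilage type IX collagen, and Col11a2, a chain of cartilage type XI collagen. Col9a3 and Col26a1 showed the same at one of their gene ends. All 3 chains of type IX collagen were therefore in this group, with Col9a2 and Col9a3 both called in each list from D2 to D8. Col9a1 has 2 listed starts, of which the upstream one was called at D4 only and the downstream one in each list from D5 to D8. Calls at the Col11a2 start were weak, with −log10 q of 2.51, 1.59, 1.39 and 3.16 at D3, D6, D7 and D8. At the Col7a1 start only the D3 call (9.25) had −log10 q of at least 5. No list held the start of 6 genes (17.1%, all genes 29.2%), Col6a4, Col6a5, Col10a1, Col17a1, Col20a1 and Col28a1, nor either end of Col22a1.

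**Figure D3:**
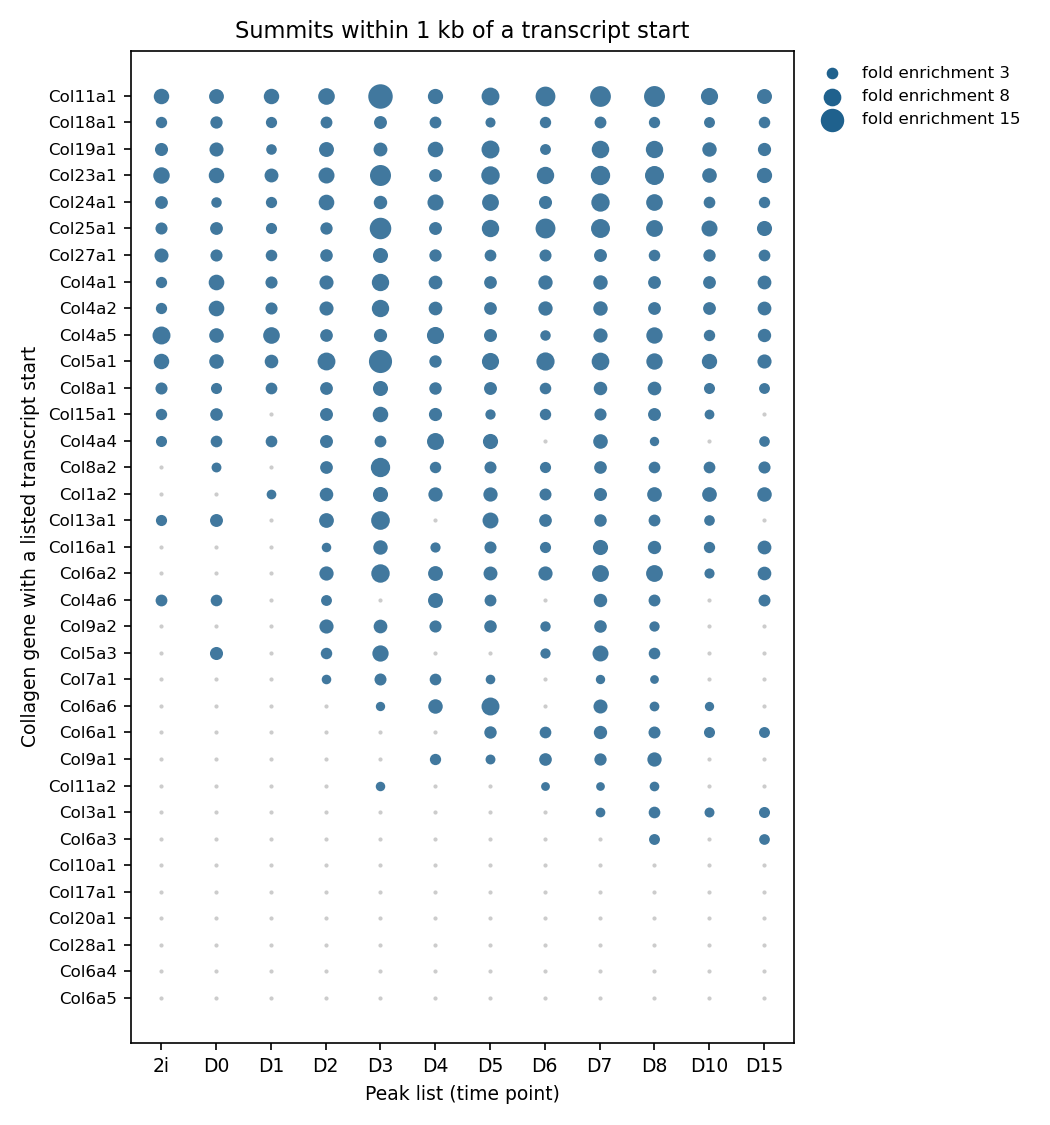
Lists (columns) in which each of the 35 collagen genes with a listed start (rows) had a summit within 1 kb of that start, with dot area proportional to the authors' fold enrichment and a small grey point where none was called. Rows are ordered from 12 genes called in all lists to 6 genes called in none, and Col1a2, Col6a2, Col16a1, Col6a1 and Col3a1 are called from D1, D2, D2, D5 and D7.

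The DNA at these starts is shown for the 5 late starts and, beside them, for starts called in all lists or in none, with their CG dinucleotides, which are counted below. The sequences are the 150 bases before the listed start, or before the outermost annotated base of the gene for Col5a1 and Col16a1, 5′ to 3′ on the gene's strand, from RefSeq (GRCm38.p6, the assembly of mm10), with CG dinucleotides in capitals. Those called late were Col1a2 (chr6:4505468-4505617, plus strand), Col3a1 (chr1:45311388-45311537, plus strand), Col6a1 (chr10:76726045-76726194, minus strand), Col6a2 (chr10:76623631-76623780, minus strand, before the upstream of 2 listed starts) and Col16a1 (chr4:130047667-130047816, plus strand). Those called in all lists were Col5a1 (chr2:27886231-27886380, plus strand) and Col8a1 (chr16:57754738-57754887, minus strand), and Col10a1 (chr10:34389831-34389980, plus strand) was called in none.
Col1a2: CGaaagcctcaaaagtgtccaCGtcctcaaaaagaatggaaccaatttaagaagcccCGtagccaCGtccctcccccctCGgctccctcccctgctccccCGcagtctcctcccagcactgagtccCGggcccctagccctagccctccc
Col3a1: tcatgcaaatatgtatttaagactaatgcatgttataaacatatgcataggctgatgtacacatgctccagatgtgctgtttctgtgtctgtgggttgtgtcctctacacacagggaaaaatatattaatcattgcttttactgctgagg
Col6a1: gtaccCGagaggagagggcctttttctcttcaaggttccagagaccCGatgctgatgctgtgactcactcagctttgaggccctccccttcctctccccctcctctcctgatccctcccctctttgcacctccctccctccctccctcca
Col6a2: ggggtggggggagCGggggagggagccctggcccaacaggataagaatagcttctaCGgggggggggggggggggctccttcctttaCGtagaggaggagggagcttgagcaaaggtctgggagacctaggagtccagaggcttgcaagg
Col16a1: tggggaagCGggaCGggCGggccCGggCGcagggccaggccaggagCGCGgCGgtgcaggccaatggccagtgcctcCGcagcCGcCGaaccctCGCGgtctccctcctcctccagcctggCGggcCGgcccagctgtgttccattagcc
Col5a1: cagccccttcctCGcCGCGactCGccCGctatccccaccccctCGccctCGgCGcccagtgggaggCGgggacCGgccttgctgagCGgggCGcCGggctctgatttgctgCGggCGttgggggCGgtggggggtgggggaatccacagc
Col8a1: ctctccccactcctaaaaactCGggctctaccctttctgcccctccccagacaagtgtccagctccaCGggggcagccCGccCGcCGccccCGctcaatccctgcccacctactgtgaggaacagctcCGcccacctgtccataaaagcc
Col10a1: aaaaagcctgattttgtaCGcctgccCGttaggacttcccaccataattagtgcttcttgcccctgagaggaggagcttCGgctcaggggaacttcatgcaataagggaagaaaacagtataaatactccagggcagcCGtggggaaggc

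In these stretches CG occurred 0 times for Col3a1, 2 times for Col6a1, 3 times for Col6a2, 7 times for Col1a2 and Col8a1, 15 times for Col16a1, 16 times for Col5a1 and 4 times for Col10a1. Over the 300-base windows from 250 bases before to 50 after each of 38 listed collagen starts, the median was 17 CG (6 to 37) for the 12 starts called in all lists. It was 12 (0 to 32) for the 19 called in some lists and 5 (0 to 10) for the 7 called in none. Over all 21045 listed starts the same medians were 24, 11 and 2, so the order was that of genes at large. The window of Col4a1, with 37, and that of Col4a2, with 33, overlap and share bases. For Col6a2, the window of the upstream start, the one shown, had 6 CG and that of the downstream start 16. In each list from D2 to D15 the strongest summit lay nearer the downstream start of Col6a2. Col3a1, with 0, Col6a1, with 3, and Col6a3, with 3, were among the CG-poor starts called late or in few lists. By the rule used here, late starts were not all CG-poor. That of Col1a2, called from D1, had 13. That of Col16a1, called from D2, had 24, above the median of the starts called in all lists. Those called from D5 (Col6a1) and from D7 (Col3a1) had 3 and 0. Col4a6, also with 3, was called in 8 lists, 2i and D0 among them.

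**Figure D4:**
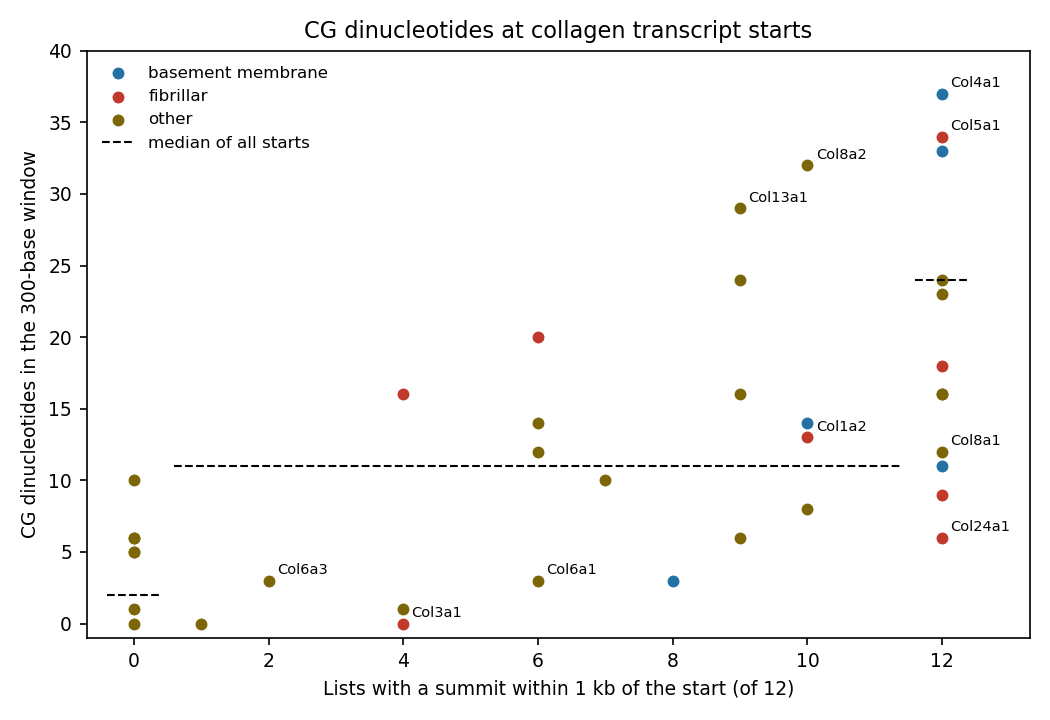
Number of CG dinucleotides in the 300-base window (vertical axis) against the number of lists with a summit within 1 kb (horizontal axis) for 38 listed collagen starts, coloured by class, with dashed lines at the medians of all listed starts (2, 11 and 24). Col3a1, Col6a1 and Col6a3 lie at 0 to 3 CG and are called in 2 to 6 lists, and Col4a1 and Col5a1 lie at 37 and 34 and are called in 12.

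Short motifs were counted in the same windows on both strands as a description. The GC box GGGCGG was found in 23 of 38 collagen starts (60.5%, against 46.7% of all starts) and can overlap other motifs. CCAAT was found in 34.2% (all starts 38.5%), TATAAA in 13.2% (12.7%), the GATA words AGATAA or TGATAA in 7.89% (15.8%) and the TEAD word GGAATG in 13.2% (13.5%). The AP-1 words TGAGTCA or TGACTCA were found in 2.63% (4.69%), the SMAD word CAGACA in 23.7% (18.5%) and the E-box CAGCTG in 18.4% (15.7%). The 1 collagen start with an AP-1 word was that of Col6a1, 90 bases before the start, and the TATAAA of Col10a1 lay 32 bases before its start. Both can be read in the sequences above.

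Regions joined over lists give the elements behind these counts. Peaks of all lists were merged into 128679 regions, of which 411 belonged to collagen genes, 102 to fibrillar, 51 to basement membrane and 258 to other collagens. A region was called late-gained where D10 and D15 held it and 2i and D0 did not. Of the 411, 44 (10.7%, Wilson 95% interval 8.07 to 14.1) at 21 genes were late-gained, against 4.1% of all regions assigned to a protein-coding gene. With only peaks of −log10 q of at least 5, 17 of 262 (6.49%) were late-gained, against 4.19%, and with the same number of top peaks in each list 37 of 256 (14.5%), against 6.31%. The share was 11 of 102 (10.8%) for fibrillar, 7 of 51 (13.7%) for basement membrane and 26 of 258 (10.1%) for other collagens. Regions held at 2i and D0 and not at D10 and D15, called early-lost, numbered 16 (3.89%, all genes 8.77%), with 3 at fibrillar, 0 at basement membrane and 13 at other collagen genes. The name does not set when a region was last held. That of Col14a1 at chr15:55307105-55309255 was held in each list from 2i to D8, and that of Col13a1 at chr10:61928684-61929613 was last held at D8.

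Of the 44 late-gained regions, 31 lay inside a gene and 13 outside, and 5 were centred within 1 kb of a listed start. Each was traced back to the list from which it was held without a gap: for 20 (45.5%) that was D7, against 31.9% of late-gained regions of all genes. D7 was thus the most common entry, with 6 more from D6, 5 from D2, 5 from D8, 4 from D5, 2 from D10 and 1 each from D1 and D4. Col6a1 had most, with 5, followed by Col5a1 with 4 and by Col4a2 and Col18a1 with 3 each.

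Late-gained regions of Col6a1 lay on both sides of the gene, on chromosome 10. That at chr10:76732710-76733903, 7.26 kb before the gene, was held from D2, with fold enrichments of 3.42 at D4, 6.64 at D8 and 5.98 at D15. As called, it came ahead of the start, at chr10:76725608-76726359, which was held from D5. The fold enrichment of the upstream region at D2 was 3.78, and this order was not tested. The other 3 lay beyond the gene's end, 13.6, 27.6 and 39.7 kb away in the 85.2 kb between Col6a1 and Col6a2, and were held from D7 or D8. The strongest of them at D15, chr10:76668757-76669476, had fold enrichments of 4.56, 5.76 and 7.96 in the lists D8, D10 and D15. The start of Col6a2 at chr10:76622904-76624077 was held from D2, with 11.2 at D3, 3.39 at D10 and 6.14 at D15.

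Col5a1 had 1 late-gained region upstream, at chr2:27858131-27859250 and 27.7 kb before the gene, and 3 inside it, 15.2, 48.3 and 70.7 kb from its start. The upstream region had fold enrichments of 4.25, 4.2, 11.9, 9.21, 3.98 and 7.32 in the lists from D5. Those inside entered at D6, D7 and D7. As called, the upstream region entered first and those 48.3 and 70.7 kb from the start last, both at D7. D6 held 32791 peaks and D7, the longest list, 66993, and the order of entry was not tested.

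The 3 late-gained regions of Col4a2 were all inside the gene, 14.9, 63.4 and 69.9 kb from its start, and all were held at D7, D8, D10 and D15 and in no earlier list. The strongest at D15 was chr8:11375668-11376691, with fold enrichments of 8.2, 8.18, 5.2 and 6.59 in those lists. Col6a3 had 2 regions with the same 4 lists, chr1:90758045-90758782 and chr1:90743777-90744510, 8.45 and 22.7 kb beyond its end. The second had fold enrichments of 13, 9.46, 6.25 and 3.2. Col6a6 had 2 inside the gene, of which chr9:105697462-105698771 had 6.47, 7.68, 9.2 and 6.65 in those 4 lists. The other, chr9:105719599-105720242, was held only at D10 (4.84) and D15 (11.1).

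**Figure D5:**
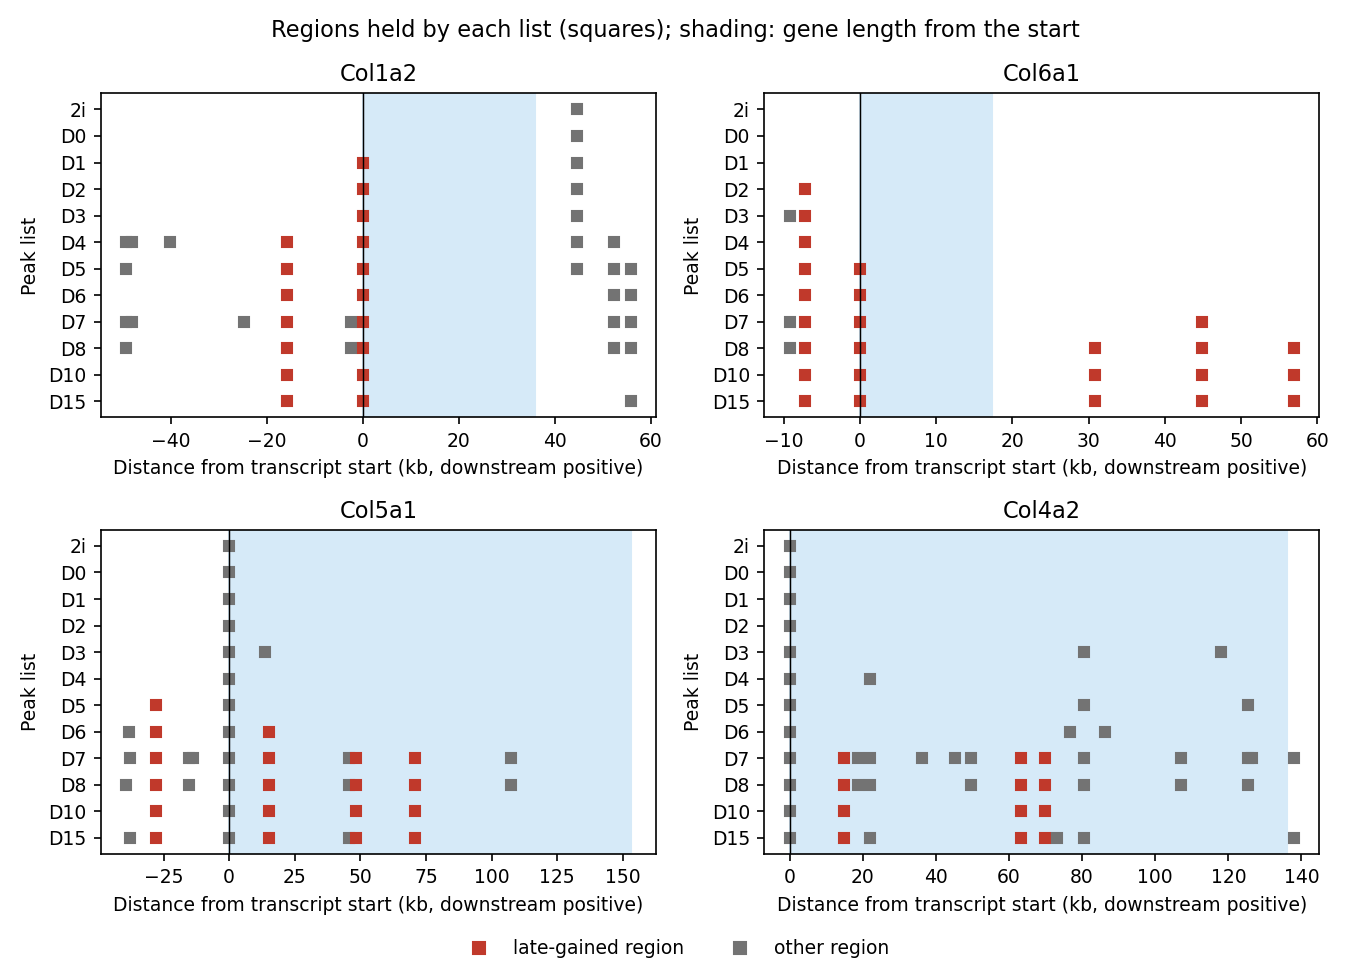
Regions assigned to Col1a2, Col6a1, Col5a1 and Col4a2 by distance of their centre from the listed start in kb (horizontal axis, downstream positive) and by list (vertical axis, 2i at the top), with late-gained regions in red, others in grey and the gene body shaded. At Col4a2 the late-gained regions 14.9, 63.4 and 69.9 kb inside the gene all begin at D7, while at Col6a1 the one 7.26 kb before the gene begins at D2.

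Of the genes of type I and III collagen, Col1a1 had a late-gained region at chr11:94927825-94929400, 7.61 kb to the left of the gene by coordinate, held from D2 with fold enrichments of 5.55 at D2, 9.54 at D6, 8.03 at D10 and 7.85 at D15. A second, at chr11:94935885-94936503, began at D7. Neither is placed before or after Col1a1, since its strand is not in the table used here. As called, the start region of Col1a2 at chr6:4505098-4506449 began at D1, ahead of its upstream region, which had fold enrichments of 4.19 at D4, 9.81 at D7 and 7.62 at D15. The D1 peak at the Col1a2 start was weak (−log10 q 1.61), and this order was not tested. Col3a1 had its start region at chr1:45311198-45311867 from D7 and one 2.54 kb inside the gene, at chr1:45313708-45314438, held at D1, at D4 and from D7, with 4.86, 6.24 and, at D15, 7.33.

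Some regions were held early and not late. Col3a1 and Col1a2 each had an early-lost region beyond their end, 8.43 and 8.77 kb away, last called at D5. Col14a1, Col22a1, Col17a1, Col6a5 and Col13a1 had 2 early-lost regions each, and of these only Col13a1 also had late-gained ones (2). Transient regions, held in the middle only by the same rule as the starts above, numbered 74 (18%, against 15.7% of all regions assigned to a gene). Col4a1, Col23a1 and Col27a1 had 5 each. Regions held by all lists numbered 13 (3.16%, against 11.4%), and regions held by 1 list 182 (44.3%, against 39.8%).

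Genes that act with collagens were taken as 4 lists and tested in the same way. Of 17 genes for modification and secretion of chains, 10 tested genes for processing and cross-linking, 7 receptors and 15 basement membrane partners, none passed the Spearman test with day at an adjusted permutation p of at most 0.05, with 5, 2, 1 and 5 higher and 0 lower at an unadjusted permutation p of at most 0.05 (all genes 9.61% higher and 6.05% lower). Their median rho was 0.29, 0.29, 0.22 and 0.27, each above the 0.06 of all genes and below the 0.40 of the collagen genes. The highest was that of Lamb1, a laminin chain, with 5, 2, 1, 1, 3, 5, 5, 3, 9, 6, 6 and 8 summits from 2i to D15 (rho 0.92, adjusted permutation p = 0.052). By Pearson's r Lamb1 passed the threshold (0.95, adjusted permutation p = 0.0235), as no other gene of the 4 lists did. P4ha1, a subunit of the enzyme that hydroxylates proline in collagen, had rho 0.80 (adjusted permutation p = 0.116), and Loxl1, a cross-linking oxidase, 0.79 (0.122). Loxl2, another oxidase of that family, had no summit in any list.

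Markers of other cell types that such cultures could hold were counted in the same lists. Of 6 fibroblast and epicardial markers (Wt1, Tcf21, Pdgfra, Postn, Dcn and Thy1), 1 had a called start at 2i, D0 and D1, 5 at D7, D8 and D10 and 4 at D15, and Pdgfra had none at any of these times. Their summits numbered 9 at 2i, 4 at D0, 44 at D7 and 22 at D15. Of 4 smooth muscle markers, 0 had a called start at 2i, D0 and D1, 4 in each list from D5 to D8, 2 at D10 and 3 at D15. Of 4 endothelial markers, 2 had one at 2i and D0, 4 at D7 and 2 at D8, D10 and D15. Of 5 endoderm markers, the count was 1 at 2i, 3 at D7, 4 at D8 and 2 at D15, with 0 in the list of D10. Fibroblast and epicardial, smooth muscle and endoderm markers thus had more called starts at D15 than at 2i, while the endothelial count was equal in both lists. Cardiomyocyte markers also had more, with 2 at 2i and 3 at D15. Over all genes with a listed start the share was 58.3% at 2i and 58.5% at D15. The part of other cell types in the collagen result was not tested.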

How the data were processed

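Open chromatin was measured in 24 ATAC-seq samples, 2 at each of 12 time points. Per the submitters' processing notes, the tools included MACS2 2.1.1, Picard, SAMtools 1.5, Bowtie2 2.3.2 and cutadapt 2.10, with the mm10 build. How replicates were combined, any shift of reads and the sequencing depth: not given in the sources used here. Every deposited peak has a score, a fold enrichment (a linear ratio of signal to background), −log10 values of its p-value and q-value, and a summit offset. The authors made these with their peak caller. Fold enrichments are printed list by list and not compared between lists, and the q-value served as a threshold in an alternative.

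Gene bounds and starts came from RefSeq tables of GRCm38.p6. A summit inside several gene bodies was counted for each. Peaks that overlapped or touched were merged into regions, each held by the lists with a peak that overlapped it by at least 1 bp and assigned by its centre. The 9 collagen genes without a listed start were judged at both annotated ends. Trends used 100000 permutations of days over lists, so the smallest possible p was 1e-05, and the method was tested on simulated data. Python 3.11.15, pandas 2.3.3 and numpy 2.4.6 were used. Collagen genes, partner lists, markers and the rule for named genes (key chains, those with most regions of a kind, those past the test) were chosen with earlier results of these data known. Alternatives changed the q threshold, list length, distance, gene filter, correlation and lists used.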

Additional observations from a re-analysis of the deposited data

How the results depend on the processing

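The trend calls depended most on the processing. Collagen genes that rose with day numbered 0 with assignment within 20 kb, 0 with all genes that had a summit in any list, 0 without D10 and D15, 0 without D0 and D15, from 0 to 0 when each list was left out in turn, and 5 with each interval counted once (Col4a2, Col6a1, Col6a3, Col6a6 and Col27a1). Col6a1 passed in 4 of its 21 alternatives, Col6a3 and Col6a6 in 5 each and Col4a2 in 3. Over these alternatives rho stayed between 0.90 and 0.96 for Col6a3, 0.88 and 0.98 for Col6a6, 0.83 and 0.95 for Col4a2 and 0.78 and 0.97 for Col6a1, and no gene followed in this way changed sign. With each interval counted once, rho was lower for Col1a1 (0.65), Col1a2 (0.63) and Col8a2 (0.74). It was higher for Col5a1 (0.87), Col27a1 (0.95) and Col6a1 (0.94). The D15 share over the D0 share of basement membrane genes was 8.91 with summits over 1 kb from starts only, against 3.5. With peaks of −log10 q of at least 5, late-gained regions numbered 17, early-lost regions 7, starts called at 2i 9, starts called in all 12 lists 3 and late starts 3, of which 2 were among the 5 reported. With the same number of top peaks in each list, early-lost regions numbered 9 and transient ones 31, and without the D7 list transient regions numbered 41. The other 60 values followed for all collagen genes or a class stayed within their limits. The counts on denominators, positions, D0 with D15 and intervals were chosen after seeing the data.

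No paired analysis was possible because each list joins both replicates of its time point. The lists do not give read depth, and the same enrichment had the lowest −log10 p at 2i (7.69) and D4 (7.71), where a missing start or region is therefore least informative.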

Other observations

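Among the other collagens, the subfamilies were unlike in their late lists. The 9 FACIT genes stood at 0.5 summits per 1000 peaks at 2i, 0.471 at D0, 0.761 at D7 and 0.497 at D15. The 4 transmembrane collagens stood at 0.304, 0.272, 0.552 and 0.331 in the same lists. Both thus had at D15 a share close to that at 2i, whereas the 6 beaded filament genes had 0.0869 at 2i and 0.772 at D15. The difference between the subfamilies was not tested.

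Several partner genes had a start called from D2 on, as Col6a2 and Col16a1 did. Over all genes with a listed start, 54.1% had a called start at D1 and 63.6% at D2. The share of all genes with a start called from D2 on was not counted. Sparc, a matrix protein that binds collagen, had no summit within 1 kb of its start at 2i, D0 or D1 and had one in each of the 9 later lists. The same held for the starts of Plod1 and Lamb2. It also held for the start of Loxl4 and for one annotated end of Loxl1, both cross-linking oxidases. Serpinh1, the chaperone of procollagen, had a called start at D0 and in each list from D2. Itga11, the chain of a collagen-binding integrin, had a called start at D3, D4, D5, D7 and D8 and at no other time. Itgb1, its partner chain, had one in all 12 lists.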
